A study of Mus musculus with 20 samples.

Results

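The quantity described here is the difference between 2 genotype effects measured in the same mice: the change of a gene in small intestine of mice labelled Irgm1-/- relative to wild type (WT), minus its change in macrophages isolated from the colon. It was computed for 16017 genes or transcripts, out of 30139 with a probe on the array, from 12 of the 20 arrays of the series. Probes were tested when 3 or more arrays of each tissue measured them well above background. The study asked which interferon-stimulated genes are raised in several tissues of Irgm1-/- mice. RNA from whole duodenum (called small intestine in the labels) and from colonic macrophages was labelled with Cy5 and hybridised to single-colour Agilent arrays, with 3 arrays in each of 4 groups. The other 8 arrays, of salivary gland, came from other animals and were not part of this contrast.

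The groups were small intestine of Irgm1-/- mice, small intestine of WT mice, colonic macrophages of Irgm1-/- mice and colonic macrophages of WT mice. Animal numbers in the deposited files tied the tissues together: 6 animals gave both, and age, sex and genotype labels were equal in both tissues for 6 of the 6. Animals are numbered below by their small intestine label, since the macrophage labels of 4 animals carry another number. The Irgm1-/- mice were males of 6 and 8 weeks (animals 1 and 2) and a female of 6 weeks (animal 3), and the WT mice were females of 6, 8 and 6 weeks. All mice were on the C57BL/6 background and were kept free of specific pathogens. The sources used here name no promoter, Cre line or cell type for the Irgm1-/- genotype. Whether the 3 mice of a genotype came from separate litters is not given either, so p-values measure the spread between these animals. Duodenum is a mixture of epithelium, muscle, vessels, nerves and immune cells. Fewer cells of a type and less RNA per cell cannot be told apart in such samples.

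Irgm1 belongs to the immunity-related GTPases, a family of interferon-induced proteins that act on membranes, on vacuoles holding microbes and in autophagy. Type I interferons signal through Ifnar1 and Ifnar2 to transcription factors, among them Irf9, that bind a DNA element called ISRE in promoters of the genes they induce. Among those genes are Oas enzymes, which make a messenger that activates RNase L upon sensing double-stranded RNA, and Usp18 and Isg15, which remove and form a ubiquitin-like tag. Type II interferon acts on another element, GAS, and is a strong inducer of the guanylate-binding proteins and immunity-related GTPases. Because the contrast subtracts one effect from another, a gene induced to the same degree in both tissues has a value near 0. A positive value means a more positive effect in small intestine, and it can come from a rise there or a fall in macrophages.

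Levels below are log2 signals relative to the 75th percentile of the array. Brightness ran with genotype in small intestine, where the percentile was 3868 to 4690 intensity units on Irgm1-/- arrays and 2322 to 3204 on WT arrays. On macrophage arrays it was 1466 to 1854 in Irgm1-/- mice and 922 to 2137 in WT mice. The part of brightness in the results was not tested. Targeted Irgm1 itself did not go with its label: its level was 2.16, 2.09 and 2.24 in small intestine of animals labelled Irgm1-/-, against 0.96, 1.1 and 0.94 in WT, and 0.95, 0.50 and 0.47 in macrophages labelled Irgm1-/-, against 0.24, -0.69 and -0.26 in WT. It was thus higher in the samples labelled Irgm1-/- in both tissues without overlap, and the sources used here do not say where its probe lies relative to the deleted part. Directions below therefore rest on the labels.

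The macrophage arrays were checked against defining markers. Csf1r, the receptor of the macrophage growth factor M-CSF, was at 5.01, 4.86 and 4.95 in Irgm1-/- macrophages and at 4.63, 4.80 and 5.16 in WT macrophages, against -0.85 to 0.72 in small intestine. Of 13 such markers, 4 were higher on every macrophage array than on every small intestine array, 4 were lower on every one and 5 overlapped. The 4 higher were Csf1r, Fcgr1 (an antibody receptor, -0.15 to 0.74 on macrophage arrays against -4.06 to -2.48 on small intestine arrays), Cd14 (1.08 to 2.38 against 0.44 to 0.997) and Cd163, a scavenger receptor detected on 5 of 6 macrophage arrays against 0 of 6 of small intestine. The 4 lower were Cd68, C1qc, Mrc1 (mannose receptor), detected on 2 of 6 macrophage arrays, and Lyz2 (lysozyme), at -2.67 to -0.22 on macrophage arrays against 1.14 to 2.27 on small intestine arrays. The epithelial genes Epcam, Muc2 and Vil1 and the collagen genes Col1a1 and Col3a1 were detected on all 6 macrophage arrays, so these preparations held RNA of other cell types in both genotypes.

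In limma with the animal as a block, 29 of 16017 genes (0.181%) had a different genotype effect in the 2 tissues at an adjusted p under 0.05 (Benjamini-Hochberg), with 29 higher and 0 lower in small intestine. On the lower side, 1167 genes had an unadjusted p under 0.05, against 1276 on the higher side. At an adjusted p under 0.1 the counts were 139 higher and 15 lower. The median over all genes was -0.19, with the middle 50% between -0.52 and 0.27 and a median standard error of 0.37. Of the 29 genes, 27 had an estimate below 0 in macrophages, and in 17 the macrophage effect was larger in size than that of small intestine. Of the 29, 8 had a group with 0 arrays well above background. Their fitted differences rest on signals at background, and 7 of the 8 have a lower bound. All 8 met the filter of a tissue through the arrays of a single genotype, so their passing is tied to that filter. The 29 held 6 of the 15 tested pancreatic enzyme genes, 4 immunoglobulin segments and 7 transcripts without a gene name or with a predicted one.

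Mice of the same number in the 2 genotypes deviated together and shared age and slides, so the contrast was also fitted with same-numbered animals paired. It then passed for 592 genes (3.7%), 506 of them higher (3.16%) and 86 lower (0.537%), and all 29 genes above were among them. For this contrast the pair and the slide are the same block. The unpaired count was 0 without any one of Irgm1-/- animals 1, 2 or 3, and 24, 16 and 16 without WT animals 1, 2 and 3. It was 0 with the females alone, 1 against 3 mice, and 0 with the 6-week animals alone.

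**Figure D1:**
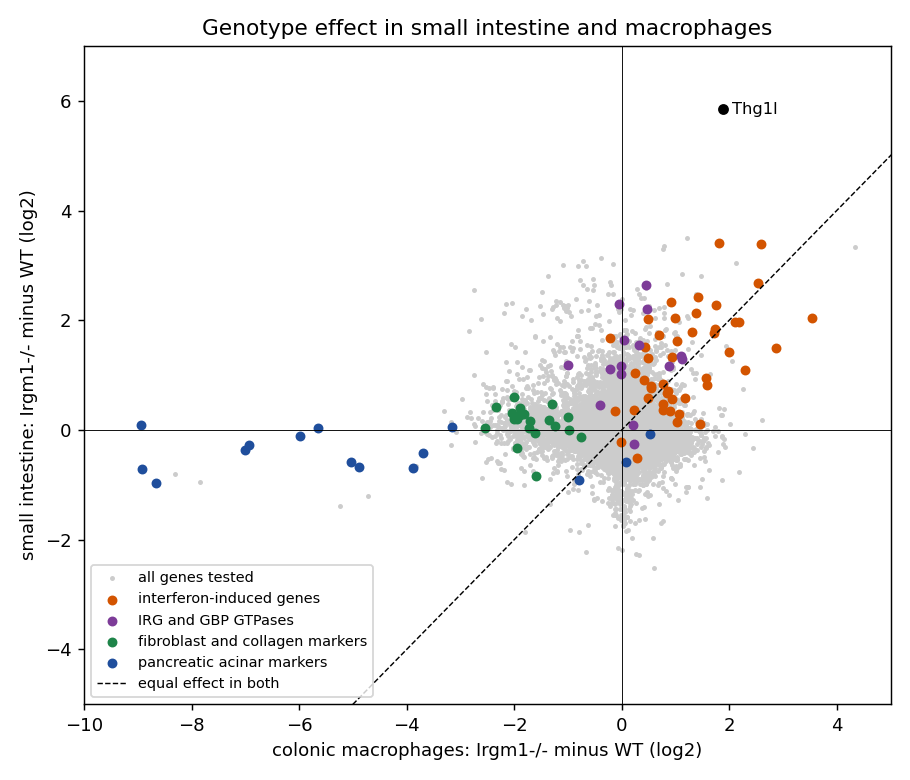
Genotype effect, Irgm1-/- minus WT on the log2 scale, in colonic macrophages (horizontal axis) and small intestine (vertical axis), 1 point per gene, with 4 gene lists coloured. Interferon-induced genes lie around the dashed line of equal effects, while pancreatic and fibroblast genes lie left of 0 at a small intestine effect near 0.

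Interferon-induced genes had a higher median level in Irgm1-/- mice in both tissues, and 0 of the 46 tested genes, of 50 listed, passed the unpaired test of a difference between tissues. Their median level per array was 2.12, 2.16 and 2.18 in small intestine of Irgm1-/- mice, against 1.02, 1.02 and 0.51 in WT. In macrophages it was 0.81, 0.53 and 0.28 in Irgm1-/- mice, against -0.45, -0.94 and -0.84 in WT. The genotypes do not overlap in either tissue. The median effect was 1.20 in small intestine and 0.96 in macrophages, beside -0.10 and 0.10 over all genes. The median of the difference was 0.10 (-0.15 to 0.26 over the alternatives), with 26 genes above 0 and 20 below. Within animals, the list sat 1.1, 1.17 and 1.89 higher in small intestine than in macrophages in Irgm1-/- mice and 1.41, 1.28 and 1.04 higher in WT mice, so these ranges overlap.

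Genes tested one at a time passed in small intestine for 13 of the 46 (0.15% of all genes passed there, all higher) and in macrophages for 2, Oas3 and Dhx58, both higher (0.0187% of all genes passed as higher). In the mean of both tissues 14 passed, all higher (0.256% of all genes passed, 0.15% as higher). With same-numbered animals paired, the counts were 0 in small intestine (0.00624% of all genes passed), 24 higher in macrophages (2.29%) and 21 in the mean (0.606%). In that fit 1 of the 46 passed for the difference itself, Phf11d (3.16% of all genes passed as higher), a count near the background. The 95% interval of the difference lay between -1 and 1 for 7 of the 46 genes, and its median half-width was 0.84, so a p that missed the threshold does not show equal effects.

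Several genes had close estimates of the effect in both tissues in the main fit. Usp18, the protease that removes Isg15 and dampens interferon receptor signalling, was at 1.33, 1.50 and 1.71 in Irgm1-/- small intestine, against -0.70, -1.47 and -1.33 in WT, and at 1.58, 1.12 and 0.64 in Irgm1-/- macrophages, against -0.30, -2.50 and -1.48 in WT. The genotypes are separate in each tissue, and the effects of 2.68 and 2.54 differ by 0.14 (95% interval -0.96 to 1.25; limma adjusted p = 0.893). Rtp4, an interferon-induced transporter-like protein, had effects of 1.76 and 1.72, a difference of 0.04 (-0.90 to 0.98). Dhx58, which encodes the RNA sensor LGP2, had effects of 1.97 in small intestine and 2.18 in macrophages, a difference of -0.21 (-0.95 to 0.53). Dhx58 was well above background on only 2 WT macrophage arrays. For Irf7, the transcription factor that amplifies interferon production, the effects were 1.84 and 1.74 and the difference was 0.10 (-0.97 to 1.18). These differences moved with the processing. Over the alternatives they ran from -0.79 to 0.81 for Usp18, -0.21 to 0.54 for Rtp4, -1.28 to 0.29 for Dhx58 and -0.29 to 0.71 for Irf7.

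Other members leaned to small intestine. Bst2 (tetherin, which holds budding virus at the cell surface) was at 3.55, 4.09 and 4.09 in Irgm1-/- small intestine, against 2.65, 2.18 and 1.88 in WT, and at 1.43, 1.24 and 1.25 in Irgm1-/- macrophages, against 1.35, 1.70 and 1.56 in WT. Its groups are separate in small intestine and overlap in macrophages, and the difference of 1.90 ± 0.38 (SE, 3 against 3 animals) had a limma adjusted p of 0.1. Ifi44 was at -1.11, -1.14 and -0.90 in Irgm1-/- small intestine, against -4.22, -4.59 and -4.58 in WT, and at -2.18, -1.97 and -2.10 in Irgm1-/- macrophages, against -4.31, -3.26 and -4.11 in WT. It is higher in Irgm1-/- in both tissues, with effects of 3.41 and 1.81 and a difference of 1.60 ± 0.40 (limma adjusted p = 0.129). Ifi44 was well above background on only 1 WT macrophage array, so the sizes of its macrophage effect and of the difference are uncertain. Phf11d, a PHD finger gene, had a level of 1.68, 1.71 and 1.88 in Irgm1-/- small intestine, against -0.38, -0.68 and -0.65 in WT, and of -0.52, -1.24 and -0.73 in Irgm1-/- macrophages, against -1.18, -2.40 and -1.64 in WT. Its macrophage groups overlap, and its difference of 1.42 had a limma adjusted p of 0.133 unpaired and 0.0408 paired. Mx2, a dynamin-like antiviral GTPase, differed by 1.53 ± 0.35 (limma adjusted p = 0.115).

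Other members leaned to macrophages. Oas3 was at -0.69, -0.47 and -0.81 in Irgm1-/- small intestine, against -2.27, -2.83 and -2.98 in WT, and at 1.79, 1.81 and 0.82 in Irgm1-/- macrophages, against -1.51, -2.71 and -1.97 in WT. Both tissues separate the genotypes, and the effects of 2.04 in small intestine and 3.54 in macrophages differ by -1.50 ± 0.37 (limma adjusted p = 0.128). Oasl2, an Oas-like protein, differed by -1.38 ± 0.44 (adjusted p = 0.207), and Ifit1, which binds viral RNA ends, by -1.20 ± 0.53 (adjusted p = 0.336). Oas2 went the other way, with effects of 3.40 in small intestine and 2.59 in macrophages. Parp9, Parp12, Parp14 and Dtx3l, named after their values were seen, had differences of -1.35, -0.79, -0.56 and -0.88. Within-animal differences of the genotypes did not overlap for 10 of the 46 (21.7%) in the higher direction, against 9.71% of all genes, and for 6 (13.0%) in the lower, against 14.2% of all genes. The share in the lower direction is near the background.

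**Figure D2:**
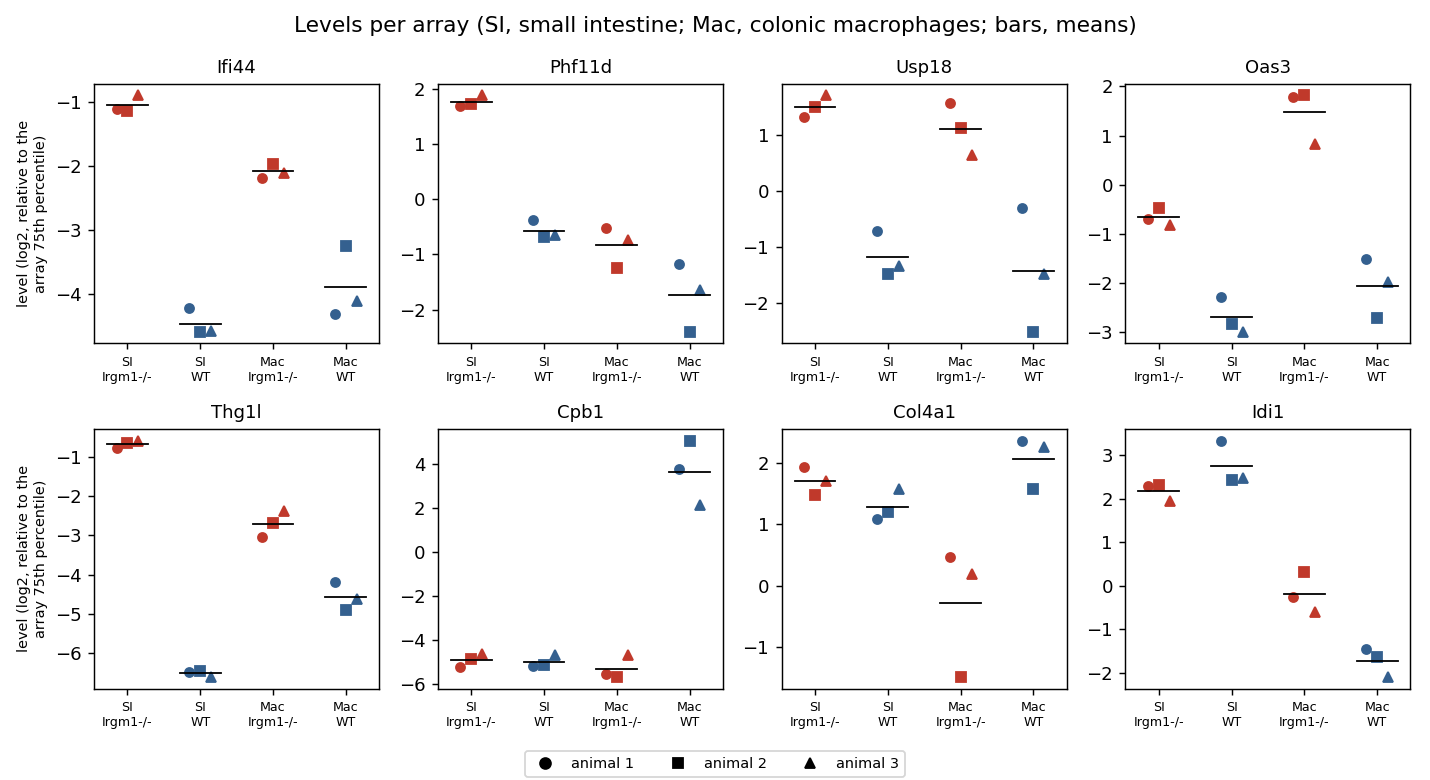
Levels of 8 genes on each of the 12 arrays (log2, relative to the 75th percentile of the array), with symbols for animals and bars for means of 3. Usp18 and Ifi44 are higher in Irgm1-/- in both tissues, Thg1l is higher in Irgm1-/- in both tissues with WT arrays at background, and Cpb1 stands high on the 3 WT macrophage arrays alone.

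Promoter windows, 250 bases before to 50 after the transcript start as given by RefSeq (GRCm38.p6), were searched for the ISRE letters (GAAA, any 2 bases, then GAAA) and the GAS letters TTCNNNGAA on both strands. Of the tested interferon-induced genes, 35 had a window, and 18 of them (51.4%) held the ISRE letters, against 3.99% of 27025 genes with a window. All 11 windows of the immunity-related GTPases and guanylate-binding proteins held them. GAS letters were in 5 of 35 (14.3%) and 7 of 11 (63.6%), against 9.55% of all genes. Over the genes of both lists, the median difference between tissues was 0.25 for the 29 with ISRE letters and 0.13 for the 17 without. It was 0.92 for the 12 with GAS letters and 0.10 for the 34 without. Of the 12, 7 belong to the list of immunity-related GTPases and guanylate-binding proteins, so this split largely follows list membership. The 5 interferon-induced genes with GAS letters had differences of 1.90 (Bst2), 0.79 (Isg20), 0.13 (Ifi35), -0.16 (Eif2ak2) and -0.57 (Oas1a). These are descriptions of the lists: absence says only that these letters are not in the window. The windows of Gm12250 and Bst2, whose effects were larger in small intestine, and of Oas3, whose effect was larger in macrophages, are shown with ISRE letters in capitals.
Gm12250 (chr11:58183593-58183892, plus strand): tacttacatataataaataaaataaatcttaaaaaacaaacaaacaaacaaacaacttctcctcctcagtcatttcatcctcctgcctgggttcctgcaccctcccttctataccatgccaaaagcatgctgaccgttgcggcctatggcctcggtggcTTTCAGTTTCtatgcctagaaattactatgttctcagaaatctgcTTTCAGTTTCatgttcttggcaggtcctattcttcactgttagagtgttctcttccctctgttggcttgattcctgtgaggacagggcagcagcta
Bst2 (chr8:71537423-71537722, minus strand): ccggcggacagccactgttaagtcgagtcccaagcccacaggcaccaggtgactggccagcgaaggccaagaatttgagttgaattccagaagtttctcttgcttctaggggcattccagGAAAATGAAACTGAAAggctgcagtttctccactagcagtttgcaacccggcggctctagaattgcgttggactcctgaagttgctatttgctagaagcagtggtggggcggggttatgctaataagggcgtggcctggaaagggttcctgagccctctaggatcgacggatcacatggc
Oas3 (chr5:120777610-120777909, minus strand): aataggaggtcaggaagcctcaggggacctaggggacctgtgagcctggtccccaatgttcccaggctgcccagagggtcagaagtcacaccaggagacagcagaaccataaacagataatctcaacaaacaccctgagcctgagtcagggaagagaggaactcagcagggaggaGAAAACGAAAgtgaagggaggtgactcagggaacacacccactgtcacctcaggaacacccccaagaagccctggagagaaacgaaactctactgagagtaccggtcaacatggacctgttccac
Gm12250 and Bst2 hold 2 matches each, which overlap in Bst2, and Oas3 holds 1.

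Immunity-related GTPases and guanylate-binding proteins leaned to small intestine. Of 15 tested among 19 listed, 13 had a positive difference, 7 (46.7%) had within-animal differences that did not overlap in the higher direction, against 9.71% of all genes, and 0 in the lower, against 14.2%. The median difference was 1.18. The median effect was 1.18 in small intestine and 0.22 in macrophages. None passed the unpaired limma test of the difference, where 8 had an interval wholly above 0; paired, Gm12250, Tgtp1 and Gm4951 passed (3.16% of all genes passed as higher). The list's median level was 0.57, -0.05 and 0.48 in Irgm1-/- small intestine, against -1.12, -0.48 and -1.47 in WT, and -0.11, -0.93 and -0.26 in Irgm1-/- macrophages, against -0.16, -0.97 and -0.41 in WT. The genotypes are separate in small intestine and interleaved in macrophages.

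Gm12250, known as Irgb10 and able to attack membranes of vacuoles and bacteria, was at 1.13, 1.44 and 1.84 in Irgm1-/- small intestine, against -1.49, -0.48 and -1.51 in WT, and at 1.31, 0.72 and 1.09 in Irgm1-/- macrophages, against 0.74, 0.46 and 0.58 in WT. Its difference was 2.19 ± 0.45 (limma adjusted p = 0.103 unpaired, 0.029 paired). Tgtp1, an effector GTPase, was at -3.15, -3.02 and -2.72 in Irgm1-/- small intestine, against -4.81, -4.59 and -4.39 in WT, and its macrophage levels of -0.03, -0.93 and -0.08 in Irgm1-/- and -0.16, -0.89 and -0.10 in WT nearly coincide. The difference was 1.60 ± 0.39 (limma adjusted p = 0.123 unpaired, 0.0327 paired). Iigp1, which disrupts the vacuole of Toxoplasma in mice, differed by 1.22 ± 0.44. Among the regulatory members, Irgm1 differed by 0.28, Irgm2 by 1.04 and Igtp by 0.25, and the guanylate-binding proteins Gbp2 and Gbp3 differed by 0.85 and 0.16 (limma adjusted p from 0.334 to 0.881).

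Thg1l, a guanylyltransferase that acts on the histidine transfer RNA, lies on chromosome 11 as Irgm1 does, with 19 protein-coding genes between them in the RefSeq order. Its level was -0.77, -0.64 and -0.58 in Irgm1-/- small intestine, against -6.48, -6.46 and -6.60 in WT, and -3.03, -2.69 and -2.37 in Irgm1-/- macrophages, against -4.19, -4.91 and -4.62 in WT. It was well above background on all Irgm1-/- arrays and on none of the WT arrays in either tissue. Irgm1-/- was at least 18.1-fold higher in small intestine and at least 2.18-fold higher in macrophages. It entered the test through its Irgm1-/- arrays alone, so the fitted difference of 3.97 ± 0.32 (limma adjusted p = 0.0133) rests on WT signals at background and has no bound. Of the 11 tested genes near Irgm1 or known to mark strains, Thg1l alone passed unpaired, and 3 passed paired (3.16% of all genes passed as higher). Pttg1 differed by 0.19 and Nnt by -0.51 (limma adjusted p = 0.769 and 0.437).

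The genes that passed included genes of the pancreatic acinar cell, which were high on the WT macrophage arrays. Of 15 tested among 28 listed, 6 passed, all higher (0.181% of all genes passed), and 12 had non-overlapping within-animal differences in the higher direction (9.71% of all genes). Paired, 11 passed (3.16% of all genes passed as higher). The median over the 15 was 4.45, or 4.2 with the 3 genes that had a group at background set to the background signal. Those 3 genes met the macrophage filter through WT arrays alone, so the counts above are partly tied to that filter. The median effect was -0.41 in small intestine and -5.03 in macrophages, where 8 passed as lower (0.119% of all genes). All 25 listed genes with a probe together made up 0.0739% to 0.105% of the summed signal in Irgm1-/- macrophages, against 0.429%, 0.759% and 1.65% in WT macrophages. In small intestine the sum was 0.184% to 0.194% in Irgm1-/- mice and 0.221% to 0.252% in WT mice. There 9 of the 25 in Irgm1-/- mice and 11 in WT mice were well above background on no array. The 25 include Zg16, also listed as a goblet cell marker, so the small intestine sum does not measure acinar RNA alone. In WT macrophages 24 of the 25 were well above background on all arrays, against 14 in Irgm1-/- macrophages. RNA of digestive enzymes was thus measured on the WT macrophage arrays, and its part in other results was not tested. Without WT animal 2, whose share was highest, the median difference of the list was 3.41.

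**Figure D3:**
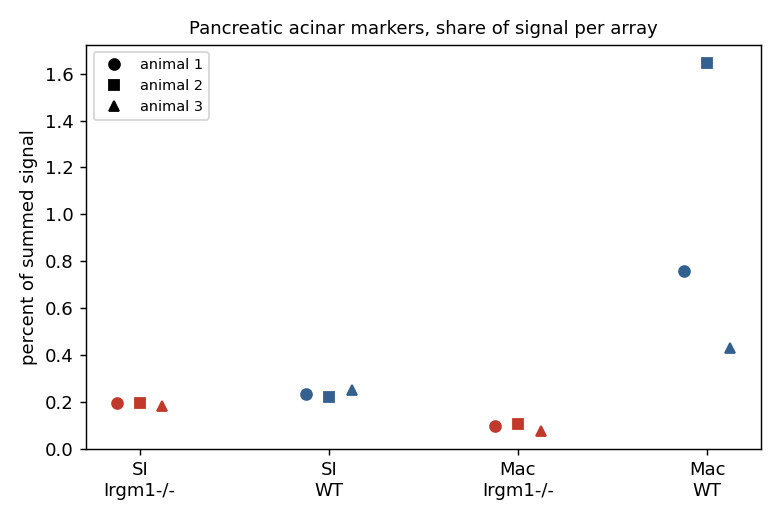
Share of the summed signal taken by pancreatic acinar markers on each array, in percent, with a symbol per animal. The sum runs over all genes, each by its probe with the highest mean. The 3 WT macrophage arrays lie at 0.429% to 1.65%, above the 9 others.

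Cpb1 (carboxypeptidase B1, a pancreatic protease) was at -5.22, -4.89 and -4.63 in Irgm1-/- small intestine, against -5.21, -5.13 and -4.68 in WT, and at -5.55, -5.68 and -4.69 in Irgm1-/- macrophages, against 3.75, 5.06 and 2.12 in WT. Cpb1 was not well above background on Irgm1-/- macrophage arrays or WT small intestine arrays, so the fold of the effects is at least 170. It met the filter of each tissue through the arrays of a single genotype, so its passing is tied to that filter. Its fitted difference was 9.04 ± 0.77 (limma adjusted p = 0.0142). Ctrb1 (chymotrypsinogen B1) was detected in every group, at -0.71, -1.04 and 0.17 in Irgm1-/- macrophages, against 6.16, 7.74 and 5.34 in WT, and at -2.45 to -1.96 and -2.03 to -1.83 in the small intestine of the same groups. Its difference was 6.67 ± 0.66 (limma adjusted p = 0.0185). The lipase Cel differed by 6.64 and the protease Ctrl by 5.69. The lipase-related Pnliprp1 differed at least 114-fold (it was not well above background on Irgm1-/- macrophage arrays). Amy2a5, the pancreatic amylase, differed by 7.70 (limma adjusted p = 0.0512). Amy2a5 was well above background on only 1 Irgm1-/- macrophage array and 2 arrays of each small intestine group, so the size of its difference is uncertain. Reg1, a secreted lectin of the pancreas, and Gp2, a membrane protein of its secretory granules, are not on the list. Neither was well above background on Irgm1-/- macrophage arrays, so their differences are at least 51.9-fold and 25.7-fold (fitted 7.51 and 6.89, limma adjusted p = 0.0175 each). Both, like Pnliprp1, met the macrophage filter through WT arrays alone, so their passing is tied to that filter. Reg1 was at -5.93, -5.84 and -5.43 in Irgm1-/- macrophages, against 2.68, 4.29 and 0.75 in WT.

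Markers of stromal cells also differed through macrophages. All 20 fibroblast and collagen genes had a positive difference (median 1.82) and 19 had non-overlapping within-animal values (9.71% of all genes). Unpaired 0 passed, and paired 11 passed (3.16% of all genes passed as higher). Their median effect was 0.19 in small intestine and -1.77 in macrophages. The list's median level was 2.37, 0.53 and 1.62 in Irgm1-/- macrophages, against 3.56, 2.82 and 3.07 in WT, and 1.88, 1.36 and 1.74 in Irgm1-/- small intestine, against 1.54, 1.45 and 1.73 in WT. The groups are separate in macrophages and overlap in small intestine. Col4a1, a chain of basement membrane collagen, was at 0.47, -1.48 and 0.19 in Irgm1-/- macrophages, against 2.36, 1.57 and 2.26 in WT, and at 1.93, 1.47 and 1.71 in Irgm1-/- small intestine, against 1.08, 1.20 and 1.57 in WT. Its difference was 2.76 ± 0.47 (limma adjusted p = 0.0839 unpaired, 0.0224 paired).

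Smooth muscle genes had a median difference of 1.23, with 15 of 16 positive. Unpaired 1 passed, and paired 7 (3.16% of all genes passed as higher). Myh11, the smooth muscle myosin heavy chain, was at 2.45, 2.25 and 2.66 in Irgm1-/- small intestine, against 0.84, 2.33 and 2.51 in WT, and at -1.61, -2.69 and -1.29 in Irgm1-/- macrophages, against 0.33, 1.43 and 1.56 in WT. It overlaps between genotypes in small intestine, and the difference of 3.53 ± 0.35 passed (limma adjusted p = 0.0185). Pdlim3, a protein of actin filaments in muscle, was not well above background on Irgm1-/- macrophage arrays. It met the macrophage filter through WT arrays alone, so its passing is tied to that filter. WT exceeded Irgm1-/- macrophages at least 3.39-fold for it, and the difference is at least 3.30-fold (fitted 3.04, limma adjusted p = 0.026). Pgm5 and Ppp1r14a, both found in muscle and named after their values were seen, passed with 2.29 and 2.81. Endothelial genes had a median of 1.26, with 1 of 14 passing unpaired and 5 paired (3.16% of all genes). Egfl7, secreted by endothelial cells, was at 1.32, 1.36 and 1.66 in Irgm1-/- small intestine, against 0.91, 1.08 and 1.33 in WT, and at -1.50, -1.85 and -1.28 in Irgm1-/- macrophages, against 0.43, 0.39 and 0.52 in WT. Its difference was 2.33 ± 0.28 (limma adjusted p = 0.0335). Hhip, an inhibitor of hedgehog signalling, and Cpxm2, a carboxypeptidase-like protein, passed with 3.66 and 2.65. The part that the makeup of the macrophage preparations has in these values was not tested.

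Genes of the complement system and of chemokines also had positive median differences. For complement, 13 of 16 were positive (median 1.39), 0 passed unpaired and 7 paired (3.16% of all genes passed as higher), with median effects of 0.35 in small intestine and -0.997 in macrophages. The protease C1s1, of the classical pathway, was at 1.33, 1.30 and 1.61 in Irgm1-/- small intestine, against 0.35, 0.99 and 1.21 in WT, and at 2.67, 1.35 and 2.16 in Irgm1-/- macrophages, against 3.94, 3.49 and 3.81 in WT. It is thus higher in Irgm1-/- in small intestine and lower in macrophages, with a difference of 2.24 ± 0.45 (limma adjusted p = 0.1 unpaired, 0.0224 paired). Chemokines had a median of 1.06, with 10 of 13 positive, 0 passing unpaired and 2 paired (3.16% of all genes passed as higher). Their median effects were 0.35 in small intestine and -0.16 in macrophages, so unlike complement the larger one was that of small intestine. Ccl7, which draws monocytes, was at -2.89, -3.28 and -2.24 in Irgm1-/- small intestine, against -4.10, -4.45 and -4.41 in WT, and at -0.83, -2.49 and -2.04 in Irgm1-/- macrophages, against 0.41, -1.27 and -1.63 in WT. Its difference was 2.47 ± 0.60 (limma adjusted p = 0.123 unpaired, 0.022 paired). Cxcl10, an interferon-induced T cell attractant, differed by 1.29 ± 0.39 (adjusted p = 0.193).

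Nucleic acid sensors had a median of 0.50, with 11 of 15 positive, 0 passing unpaired and 4 paired (3.16% of all genes). Ifi204, Ifi213 and Ifi211, of the PYHIN family of DNA-binding proteins of innate immunity, are among the 4. Ifi204 was at 1.24, 0.81 and 1.42 in Irgm1-/- small intestine, against -0.82, -0.66 and -0.62 in WT, and at 1.21, -0.97 and 0.52 in Irgm1-/- macrophages, against 1.65, 0.10 and 0.77 in WT. Its groups are separate in small intestine and overlap in macrophages, and the difference was 2.44 ± 0.57 (limma adjusted p = 0.118 unpaired, 0.022 paired). Ifi213 was not well above background on WT small intestine arrays and met the filter there through Irgm1-/- arrays alone. Its difference is at least 1.70-fold (fitted 2.05 ± 0.46, limma adjusted p = 0.115 unpaired, 0.0367 paired). Resident macrophage markers had a median of 1.04, with 14 of 18 positive, 0 passing unpaired and 4 paired (3.16% of all genes), and median effects of 0.35 in small intestine and -0.52 in macrophages.

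No gene passed on the lower side of the unpaired test, and the lowest p-values there belonged to genes that were higher in Irgm1-/- macrophages. Cholesterol synthesis genes were all below 0, 21 of 21, with a median of -1.21 beside -0.19 over all genes, and 13 had non-overlapping within-animal values (14.2% of all genes in that direction). Their median effect was -0.29 in small intestine and 0.90 in macrophages. Paired, 3 passed (0.537% of all genes passed as lower). Idi1, the isomerase that makes the second isoprenoid building block, was at 2.29, 2.30 and 1.94 in Irgm1-/- small intestine, against 3.33, 2.43 and 2.47 in WT, and at -0.26, 0.31 and -0.60 in Irgm1-/- macrophages, against -1.46, -1.63 and -2.09 in WT. Its genotypes are separate in both tissues in opposite directions, and the difference of -2.11 ± 0.33 had a limma adjusted p of 0.0667 unpaired and 0.0224 paired.

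Epithelial and proliferation genes shared that direction. Goblet cell markers were below 0 for 13 of 13 (median -1.39), 8 without overlap (14.2% of all genes), with 0 passing unpaired and 2 paired (0.537% of all genes). Tff3, a mucus-associated peptide, was at 6.31, 6.57 and 6.31 in Irgm1-/- small intestine, against 7.09, 6.73 and 6.90 in WT, and at 6.34, 6.20 and 5.03 in Irgm1-/- macrophages, against 4.32, 4.70 and 4.17 in WT. Its difference was -1.97 ± 0.41 (limma adjusted p = 0.111 unpaired, 0.0391 paired). Agr2, a chaperone of mucin folding, differed by -1.61 ± 0.30 (adjusted p = 0.0959 unpaired, 0.044 paired). Goblet markers together took 0.209% to 0.313% of the signal in Irgm1-/- macrophages and 0.144% to 0.187% in WT macrophages, a difference whose part in these values was not tested. Cell cycle genes had a median of -0.83, with 21 of 23 below 0, 14 without overlap (14.2% of all genes) and 2 passing when paired (0.537% of all genes). Oxidative phosphorylation genes were below 0 for 42 of 43 (median -0.77), and 0 passed with or without pairing. Of the 43, 6 (14.0%) had no overlap, a share near the 14.2% of all genes.

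**Figure D4:**
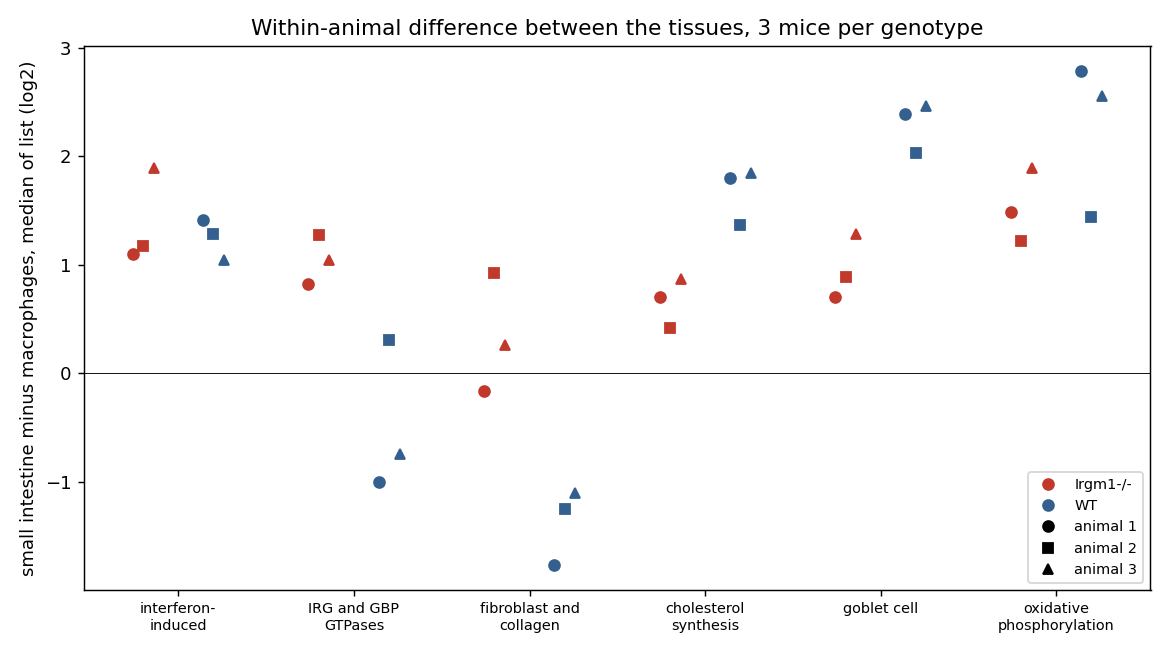
Difference between small intestine and macrophages within each animal, as the median of a gene list (log2), for 3 Irgm1-/- and 3 WT mice. The genotypes overlap for interferon-induced genes and for oxidative phosphorylation, and are separate for the other 4 lists.

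Genes of antigen presentation, autophagy and protein folding had smaller medians, beside -0.19 over all genes: MHC class I antigen processing -0.05 (18 genes), MHC class II 0.20 (10 genes), autophagy and mitophagy 0.05 (32 genes) and the unfolded protein response -0.22 (22 genes). Each of these 4 medians changed sign under 1 or more alternatives, and that of MHC class II was -0.08 without Irgm1-/- animal 2 and 1.1 without WT animal 2. The interferon signalling chain had a median of -0.18 (17 genes), with 0 genes passing unpaired and 1 paired (3.16% of all genes passed as higher). In the 4 lists before it, 0 genes passed in either fit. Of MHC class I, B2m and H2-K1 differed by -0.18 each, and the immunoproteasome subunits Psmb8 and Psmb9 by 0.22 and 0.16, with limma adjusted p from 0.745 to 0.829. Another probe of H2-K1 gave -0.87, and H2-K1 ran from -0.53 to 1.01 over the alternatives.

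**Figure D5:**
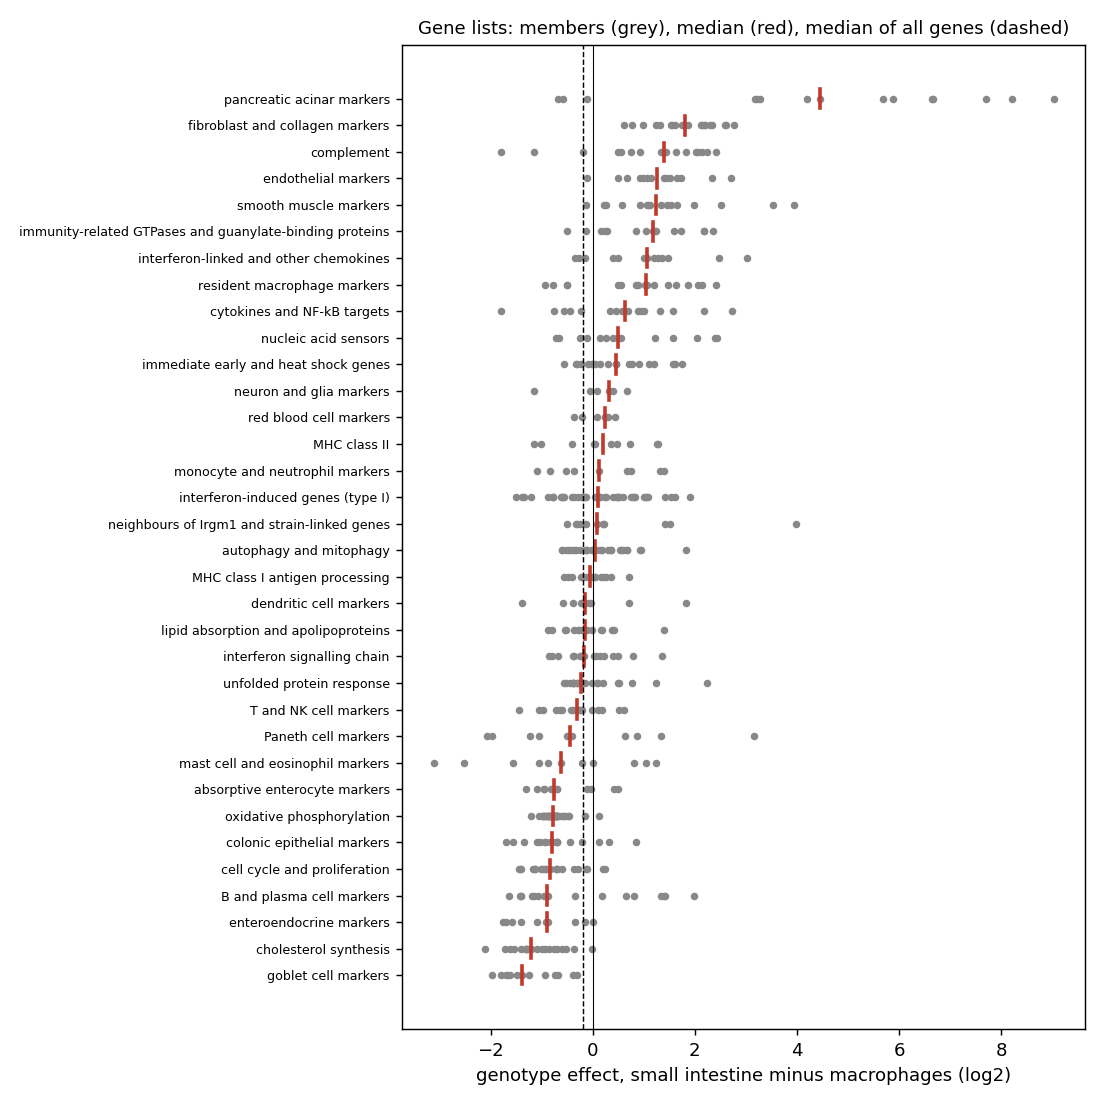
Difference of the genotype effects, small intestine minus macrophages (log2), for the tested members of 34 gene lists (grey points), with list medians in red and the median of all genes, -0.19, as a dashed line. Medians run from -1.39 for goblet cell markers to 4.45 for pancreatic acinar markers.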

How the data were processed

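Intensity values were read from the deposited scanner files, which hold processed red signals on a linear scale, background-subtracted by Agilent Feature Extraction 11.5.1.1 per the file headers (annotation build mm9) and not normalized between arrays. The deposited well-above-background and outlier flags, coded 0 or 1 as other values, were used as filters. The intensity values of the authors' deposited table of the series, normalized in a way that the sources used here do not state, served as an alternative.

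Outlier spots (0.434%) were left out, spots averaged per probe, and log2 signals set to the 75th percentile of the array. Genes were named through RefSeq accessions (27508 probes matched) and represented by the probe with the highest mean. Tests used limma 3.58.1 in R 4.3.3, with version 1.17.8 of data.table, and the animal as a fixed block, Benjamini-Hochberg adjustment over all genes and a threshold of 0.05. For the 207 genes with a missing array, the fit dropped that animal. "At least" folds take, on each array of the dim group, the lowest signal among probes well above background, or the signal of the probe itself where higher.

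Same-numbered animals of the 2 genotypes share age and slides. Their within-animal deviations correlated across genes by 0.30, 0.36 and 0.52, so the paired values stand beside the unpaired ones. Between the tissues of the same animal, deviations from group means correlated by -0.06 to 0.27 (median 0.08). For other animals of the same genotype the range was -0.25 to 0.17 (median -0.06), and across genotypes -0.18 to 0.25. These ranges overlap, so the tie between tissues rests on the animal numbers and labels. Tissues were scanned on separate days, so tissue and scan day cannot be told apart. The number of arrays limits the precision. On simulated data of 15810 genes, the main contrast recovered 4%, 82%, 96% and 98% of changes of log2 size 1, 2, 3 and 4 (50 genes each). The simulated noise was independent between genes, and the many large planted changes ease the adjusted threshold. In the measured data, differences of 2.19 (Gm12250), 2.24 (C1s1) and -2.11 (Idi1) did not pass unpaired. The simulated shares are therefore not the sensitivity of the measured data.

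Gene names follow a rule. It took up to 15 passing genes by p on each side (8 by p where few passed). It added up to 4 passing or 2 other members of each of 34 lists. A fixed set of interferon genes and neighbours of Irgm1, and leading genes passing in the mean or in a tissue, completed it. Some genes outside the rule are marked as named after their values were seen. Others outside it, among them Ifi211, Gm4951, Asb2, Efcc1, Gm7609, Isg20, Ifi35 and Eif2ak2, carry no such mark. Members and lists were chosen with earlier results of these data known. Alternatives covered scaling, background correction, filter, probe choice, blocks and leaving out animals. Ifit2 and Mx1 did not pass the filter. Some genes that the rule names are not reported here.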

Additional observations from a re-analysis of the deposited data

Results flagged for a closer look

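The genotype effect differed between small intestine and macrophages, by the interaction term in limma at an adjusted p under 0.05, for 29 genes or transcripts, and every difference was positive. For 8 of them at least 1 group had 0 arrays well above background, so the fitted values give no exact size. All 8 met the filter of a tissue through the arrays of a single genotype, so their passing is tied to that filter. Among genes of the pancreas the fitted difference was 9.04 for Cpb1, 8.22 for Pnliprp1, 7.51 for Reg1 and 6.89 for Gp2, none of them well above background on Irgm1-/- macrophage arrays. For genes detected in every group the fitted difference was 6.67 for Ctrb1, 6.64 for Cel and 5.69 for Ctrl. Among genes of muscle and vessels it was 3.53 for Myh11, 3.04 for Pdlim3, 2.81 for Ppp1r14a, 2.33 for Egfl7 and 2.29 for Pgm5, and it was 3.66 for Hhip, 2.98 for Efcc1 and 2.65 for Cpxm2. It was 3.97 for Thg1l, 2.91 for Cblif (gastric intrinsic factor) and 2.15 for the predicted gene Gm7609, which are the 3 that also passed in small intestine alone. These 3 were not well above background on WT small intestine arrays and met the filter there through Irgm1-/- arrays alone. The 4 immunoglobulin segments had differences of 3.80, 3.51, 3.51 and 3.36. The differences have lower bounds of 170-fold for Cpb1, 114-fold for Pnliprp1, 51.9-fold for Reg1, 25.7-fold for Gp2, 3.30-fold for Pdlim3, 3.29-fold for Gm7609 and 1.83-fold for Cblif, and Thg1l has none. A further 6 are transcripts that the table used here does not name, with differences of 3.98, 3.70, 3.57, 3.51, 3.28 and 2.60.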

How the results depend on the processing

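The count of 29 genes that differed between tissues became 86 with arrays scaled to their median, 100 with quantile normalization, 190 with normexp plus quantile normalization, 48 with the authors' series table and 44 with an intensity trend. It was 592 with slide as a block or with same-numbered animals paired (replicate block), 103 with the animal as a random block, 12 with the label numbers as the block, 265 over all 20 arrays without a block, and 0 with the females or the 6-week animals alone. Leaving out 1 animal gave 0 to 24. In small intestine the 24 calls became 1 with the replicate block, 0 with the females and 0 with the 6-week animals, and 1 to 36 without 1 animal. In macrophages the 22 calls became 193 with median scaling, 35 with quantile normalization, 14 with the percentile over detected probes, 67 with normexp plus quantile normalization, 1218 with the replicate block, 758 in a fit of 4 group means and 4 with the females, and 12 to 26 without 1 animal. In the mean of both tissues the 41 calls became 74 with median scaling, 97 with the replicate block or slide, 4 with the females and 14 with the 6-week animals, and 8 to 49 without 1 animal. The pancreatic median of 4.45 was 5.55 with quantile normalization and 3.41 to 5.41 without 1 animal. The median changed sign under 1 or more alternatives in 13 of 34 lists, each with a median within 0.45 of 0. Interferon-induced genes ran from -0.15 to 0.26, MHC class I from -0.15 to 0.24, MHC class II from -0.08 to 1.1, autophagy from -0.05 to 0.22 and the unfolded protein response from -0.32 to 0.02. The interferon signalling chain had 0.036 without WT animal 1 (-0.16 to 0.036 without 1 animal), and Paneth cell markers had 0.0066 with normexp plus quantile normalization. The cause of these shifts was not tested. Of 2700 values of named genes under the alternatives, 0 changed sign past the threshold, 99 lost the call and 110 gained it. Differences of log2 size 1 were mostly not detectable with 3 animals per genotype.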

Other observations

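Genes that passed in the mean of both tissues, 41 in all with 24 higher and 17 lower in Irgm1-/- mice, included 10 that also passed for the difference. The 24 higher genes had estimates above 0 in both tissues. Of the 17 lower, 13 passed in macrophages and 0 in small intestine, and in 16 the macrophage estimate was over 3 times that of small intestine in size, so a pass in the mean does not show a shared effect. Oas2 had a mean effect of 2.996 and Asb2, a subunit of a ubiquitin ligase, one of 2.03 (limma adjusted p = 0.00414 and 0.0128). Of the 24 genes that passed in small intestine, 21 had an estimate above 0 in macrophages. Of the 22 that passed in macrophages, 13 passed for the difference, and 2 genes passed in both tissues.

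Cblif, the intrinsic factor that binds vitamin B12, was at -4.47, -4.19 and -3.89 in Irgm1-/- small intestine, against -6.79, -7.06 and -6.79 in WT, where it was not well above background, so Irgm1-/- was at least 1.58-fold higher. In macrophages its levels of -2.29, -2.49 and -1.69 in Irgm1-/- and -1.71, -2.36 and -1.77 in WT overlap. Mcpt2, a protease of mucosal mast cells, had a difference of -3.12 (limma adjusted p = 0.195 unpaired, 0.0224 paired), with small intestine levels of -7.44, -4.26 and -7.04 in Irgm1-/- mice and -3.53, -3.03 and -4.65 in WT mice. The levels of Irgm1-/- animals 1 and 3 lie near those of Prss2 (-7.58 and -7.64), which was detected on 0 small intestine arrays. The size of the Mcpt2 difference is therefore uncertain.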
